A study of Rattus norvegicus with 15 samples.

Results

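Elastic fibre genes were followed across 15 cultures of H9c2, a rat myoblast line from the embryonic heart. The members were the genes of the count table whose symbol is on a list of 10: Eln, Fbn1, Fbn2, Fbln1, Fbln2, Fbln5, Ltbp1, Ltbp2, Ltbp3 and Efemp2. The table held 11574 genes and 8 of the members, and Fbn2 and Fbln2 were not analysed here. Each of the 5 groups had 3 cultures. T0 was harvested after attachment in rich serum. T7-RA and T14-RA were kept in low serum for 7 and 14 days. T7+RA and T14+RA also received 1 µM all-trans retinoic acid (RA), a ligand of nuclear receptors made from vitamin A, every day. RA was dissolved in DMSO, and the sources used here do not say whether the cultures without RA received the solvent. The sample titles and the study name H9c2 for all cultures, whereas the cell line field of the labels holds a different name, with a rising last number, in each sample after T0. H9c2 was used here, as no second line is described. The study calls the cultures biological replicates, so the p-values set a change against the spread between these cultures. Low serum began after T0, so culture time and the drop in serum cannot be told apart.

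Elastic fibres have an elastin core laid down on a scaffold of fibrillin microfibrils, and they give the heart wall and large vessels their recoil. Fibulins bring tropoelastin to the microfibril and to the lysyl oxidases, which cross-link it. Latent TGF-beta binding proteins (LTBPs) resemble fibrillins, bind to the microfibrils and, for some of them, hold TGF-beta there in an inactive complex.

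The libraries held 508397 to 1030820 counts and the median gene had 22 counts in a library, whereas the members had between 36 (Fbln1) and 2545 (Eln) counts in any one library. Levels are CPM, the counts of a gene scaled to library size after TMM adjustment, and comparisons between genes use CPM per kilobase of the gene length listed with the counts. Muscle markers checked the label. The summed level of 8 muscle genes was 206 to 231 CPM at T0, 3116 to 3615 in T7-RA, 11675 to 12346 in T14-RA, 1678 to 1961 in T7+RA and 5342 to 6124 in T14+RA. Most of the T14-RA sum was Myh3, Acta1 and Tnnt3, with means of 5056, 3258 and 1932 CPM, beside 1874, 1655 and 915 in T14+RA. Actc1 averaged 250 CPM in T14-RA and 33.0 in T14+RA, Tnnt2 754 and 628, and Myog 638 and 569. Ckm averaged 63.3 and 70.8 CPM and Des 40.3 and 39.5. Of 6 fibroblast genes 4 were analysed, with sums of 18448 to 37564 CPM over the 15 libraries that were mostly Col1a1 (29893 ± 6673 CPM at T0), and none of 4 endothelial or 3 macrophage genes was among the genes analysed here. Dcn and Lum of the fibroblast list had 0 counts in each T0 library. Dcn averaged 50.5 CPM in T14-RA and 119.8 CPM in T14+RA, and Lum 28.5 and 6.24 CPM. Thy1 averaged 289.7 CPM at T0, then 239.5 (T7) and 270.4 (T14) without RA, with means of 179 on day 7 and 179.6 on day 14 under RA. The part of these markers in the results was not tested. In bulk RNA fewer cells of a type and less RNA per cell cannot be told apart.

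Time and RA were tested in an additive model with terms for T7, T14 and RA, in which a gene was called at an edgeR adjusted p under 0.001. At T7, 0 of 8 members rose and 4 fell, beside 4.29% of all genes called higher and 4.44% called lower, and with library size scaling 1 rose and 2 fell. Without T0 replicate 1, 2 members fell at T7, with Efemp2 and Ltbp1 lost. At T14, 1 rose and 5 fell, beside 8.47% and 8.85% of all genes. For RA, 3 rose and 1 fell, beside 3.33% and 3.07%. Eln, Efemp2, Ltbp1 and Ltbp2 were called lower at T7, and Eln, Fbn1, Efemp2, Fbln5 and Ltbp2 at T14, where Ltbp3 was called higher. RA raised Ltbp1, Ltbp3 and Fbln1 and lowered Fbln5. The median log2 change of the members was -0.49 at T7, -0.78 at T14 and -0.14 for RA, beside 0.02, 0.05 and -0.01 over all genes. Scaling by library size alone moved the median of all genes to 0.13 at T7 and 0.15 at T14.

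The days were separated with 1 mean per group. RA at day 7 called 3 members higher (Fbln1, Ltbp1 and Ltbp3) and 0 lower, beside 1.87% and 1.30% of all genes. RA at day 14 called 2 higher (Ltbp1 and Ltbp3) and 2 lower (Eln and Fbln5), beside 2.46% and 2.35%. The RA change itself differed between the days, at an edgeR adjusted p under 0.05, with 0 members higher at day 14 and 1 lower (Eln), beside 0.285% and 0.458% of all genes. The difference was called for 3 members without T0 replicate 2 and for 2 without T14-RA replicate 3 or T14+RA replicate 2. In the second week without RA, T14-RA against T7-RA, 0 members rose and 3 fell (Eln, Fbln5 and Ltbp2), beside 1.87% and 1.09%. Without T7-RA replicate 1 only Fbln5 of the 3 was called.

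**Figure D1:**
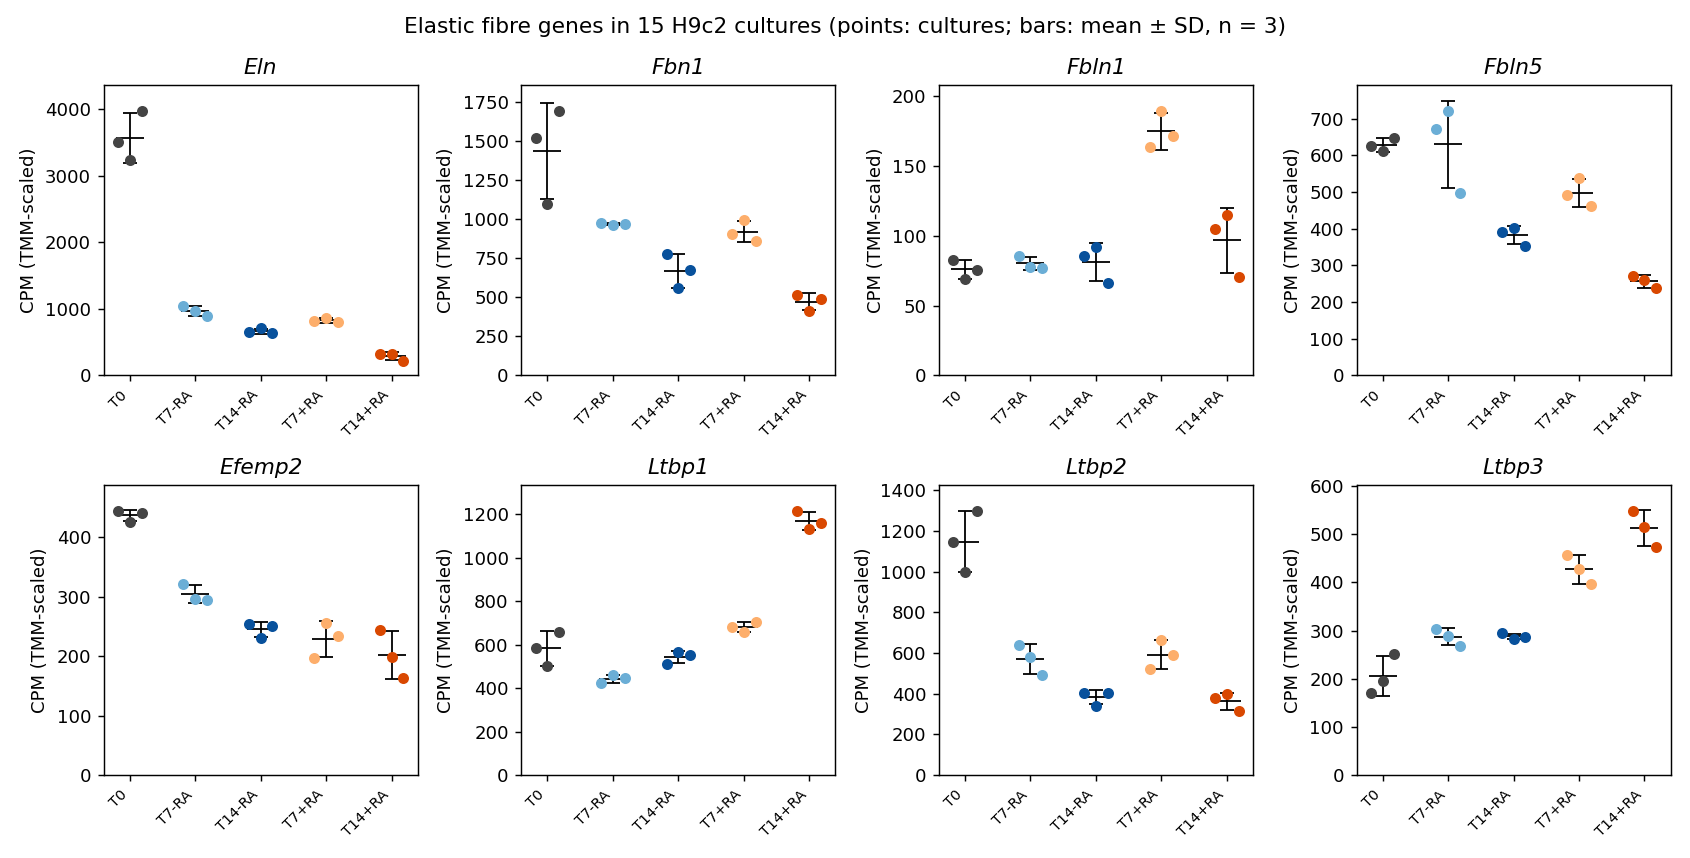
Level of each member in each of the 15 libraries, in TMM-scaled CPM, by group, with points for cultures and bars for the mean ± SD (n = 3). Eln runs from 3234 to 3970.2 CPM at T0 and from 221 to 327 CPM in T14+RA, whereas Ltbp3 is higher in every RA culture than in any other culture.

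Eln (ENSRNOG00000001469, band 12q12) encodes tropoelastin, the soluble precursor of the elastic core, and was the most abundant member per kilobase at T0. Its level was 3511, 3234 and 3970.2 CPM in the T0 cultures, 1047, 961 and 890.3 CPM in T7-RA and 646, 705 and 638 CPM in T14-RA. With RA it was 821, 863 and 795 CPM at T7 and 323, 327 and 221 CPM at T14. No group overlapped another, and the order was T0, T7-RA, T7+RA, T14-RA and T14+RA. Elastin took 0.312% to 0.373% of all counts at T0 and ranked between 9 and 13 among all genes by count, whereas in T14+RA it took 0.0224% to 0.0328% and ranked between 515 and 884. In the additive model it fell by 1.66 on the log2 scale at T7 (SE 0.201, adjusted p = 5.03e-05 in edgeR) and by 2.65 at T14 (SE 0.196, adjusted p = 1.46e-07). That model fits a single RA change to both days, whereas the RA change of Eln differed between them. The sizes of these time terms are therefore shifted, and the levels without RA above show the time course itself. A list of 4 smooth muscle genes summed to 15231 to 16810.3 CPM at T0 and to 3334 to 5303 CPM in the other libraries, with 3334 to 3443 CPM in T14-RA and 3985 to 4790.2 CPM in T14+RA. Acta2 made up most of that sum (12684 ± 323 CPM at T0), and Myh11, a defining smooth muscle gene, stood at 10.0 ± 1.55 CPM at T0, 13.2 ± 3.31 in T14-RA and 9.95 ± 2.53 in T14+RA. Tagln averaged 2829 CPM at T0, 806 in T14-RA and 1003 in T14+RA, and Cnn1 averaged 401, 64.3 and 98.0 CPM. The part of these genes in the Eln values was not tested.

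The RA change of Eln was unequal over the days. At day 7 the log2 change was -0.23 (95% interval -0.43 to -0.03, adjusted p = 0.204 in edgeR), and at day 14 Eln fell by 1.17 with RA (SE 0.111, adjusted p = 2.18e-13). The difference between the days was -0.95 (SE 0.149, adjusted p = 2.23e-05), and it was called without any one of the 15 libraries. The RA term of the additive model, a mean over the days, was -0.66 and was not called by edgeR (adjusted p = 0.0129). That term was called by limma-voom (adjusted p = 7.76e-05), by DESeq2 (0.000733) and in edgeR without T14+RA replicate 3 (0.000572). Without RA, Eln fell by a further 0.55 in the second week (SE 0.102, adjusted p = 6.94e-05 in edgeR), a call that was lost without T7-RA replicate 1 (-0.48, 0.00405), T14-RA replicate 1 (-0.53, 0.00247) or T14-RA replicate 3 (-0.52, 0.00211).

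Fbn1 (ENSRNOG00000007302, band 3q36) encodes fibrillin-1, the main structural protein of the microfibril. Its level was 1516, 1096 and 1687 CPM at T0, 971, 958 and 970.2 CPM in T7-RA and 777, 559.7 and 671 CPM in T14-RA. With RA it was 905, 991 and 860.4 CPM at T7 and 513, 409 and 488 CPM at T14. The T0 cultures lay above all others, and the cultures of T7-RA and T7+RA overlapped, whereas T14+RA lay below all other groups. Fbn1 fell by 1.20 on the log2 scale at T14 (SE 0.125, adjusted p = 1.59e-09 in edgeR), while its T7 change of -0.46 was not called (adjusted p = 0.00698). That T7 change was called without T0 replicate 2 (-0.61, 3.01e-05) or T14+RA replicate 2 (-0.49, 0.000962). RA at day 7 gave -0.07 (95% interval -0.31 to 0.16) and RA at day 14 gave -0.51 (SE 0.124, adjusted p = 0.00349 in edgeR). The day 14 change was called without T0 replicate 2 (-0.51, 3.48e-05), T0 replicate 3 (-0.51, 0.000472) or T14-RA replicate 2 (-0.62, 0.000425). The second week without RA gave -0.52 (adjusted p = 0.00255 in edgeR), which was called without T0 replicate 2 (-0.51, 1.80e-05), T0 replicate 3 (-0.52, 0.000338) or T14-RA replicate 1 (-0.65, 0.000579). Per kilobase the level of Eln over that of Fbn1 was 7.40 ± 1.04 at T0 (SD, n = 3). The cultures without RA gave 2.91 ± 0.235 on day 7 and 2.96 ± 0.643 on day 14, and the RA cultures gave 2.62 ± 0.0788 on day 7 and 1.83 ± 0.505 on day 14. That pair was chosen after the values were seen.

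The fibulins moved in different directions. Fbln1 (ENSRNOG00000014137, band 7q34) encodes fibulin-1, which is found with elastin inside the fibre and in basement membranes. It was the least abundant member per kilobase in every group, with levels of 82.8, 69.4 and 75.5 CPM at T0, 85.9, 77.9 and 77.0 CPM in T7-RA and 85.3, 92.1 and 66.0 CPM in T14-RA. With RA it reached 164, 189 and 171 CPM at T7 and 105, 115 and 70.7 CPM at T14. The T7+RA cultures therefore lay above all others, whereas T14+RA overlapped the cultures without RA. Fbln1 rose with RA at day 7 by 1.12 on the log2 scale (SE 0.157, adjusted p = 9.06e-08 in edgeR), and its change at day 14 was 0.28 (95% interval -0.07 to 0.62, adjusted p = 0.388). The additive RA term was 0.74 (SE 0.130, adjusted p = 1.42e-05 in edgeR). The difference between the changes at day 14 and day 7, -0.84 (SE 0.235), did not pass the test (adjusted p = 0.0792 in edgeR). It passed without T0 replicate 2 (-0.84, 0.0405), T14-RA replicate 3 (-0.97, 0.0475) or T14+RA replicate 2 (-0.96, 0.0427).

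Fbln5 (ENSRNOG00000050539, band 6q32) encodes fibulin-5, which binds tropoelastin and integrins and is needed for fibre assembly. It had 625, 612 and 648 CPM at T0, 673, 720.3 and 497 CPM in T7-RA and 392, 402 and 354 CPM in T14-RA. With RA it had 492, 539.7 and 463 CPM at T7 and 272, 261 and 237 CPM at T14. T0 and T7-RA overlapped, as did T7-RA and T7+RA, and both day 14 groups lay below all earlier cultures. Its T7 change was 0.06 (adjusted p = 0.752 in edgeR), and it fell by 0.72 in the second week without RA (SE 0.109, adjusted p = 9.66e-07). The additive RA term fell by 0.44 (SE 0.0851, adjusted p = 5.97e-05). RA at day 14 gave -0.57 (SE 0.118, adjusted p = 0.000268 in edgeR), a call lost with limma-voom (0.00133) and without T14-RA replicate 1 (-0.55, 0.00395) or 2 (-0.53, 0.00372). It was also lost without T14+RA replicate 1 (-0.62, 0.00122), 2 (-0.57, 0.00166) or 3 (-0.52, 0.00299).

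Efemp2 (ENSRNOG00000020587, band 1q43) encodes fibulin-4, which joins tropoelastin to lysyl oxidase. Its level was 444, 426 and 440.2 CPM at T0, 322, 297 and 295 CPM in T7-RA and 255, 230.2 and 251 CPM in T14-RA. With RA it was 197, 256 and 235 CPM at T7 and 244, 198 and 163 CPM at T14. T0 lay above every other culture and T7-RA above the remaining groups, which overlapped one another. Efemp2 fell by 0.55 at T7 (SE 0.114, adjusted p = 0.000156 in edgeR) and by 0.79 at T14 (SE 0.116, adjusted p = 1.15e-07). The T7 call was lost without T0 replicate 1 (-0.53, 0.00242) or T7-RA replicate 3 (-0.54, 0.00102), and with library size scaling (-0.45, 0.00217). The additive RA change of -0.34 was not called (adjusted p = 0.00595 in edgeR), and was called without T14+RA replicate 1 (-0.42, 0.000849).

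**Figure D2:**
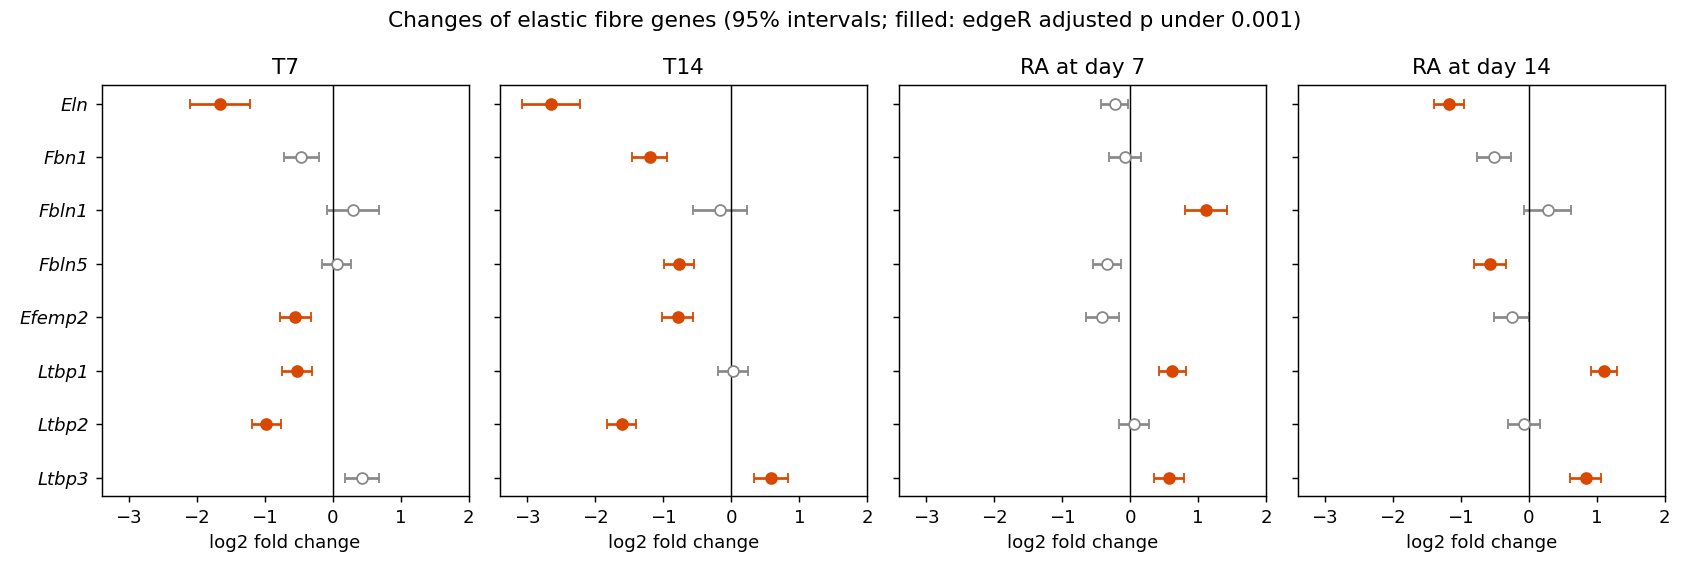
Log2 change of each member with its 95% interval for T7 and T14 in the additive model and for RA at day 7 and at day 14, with filled symbols at an edgeR adjusted p under 0.001. Eln and Fbln1 show the most unequal RA changes over the days, at -0.23 and -1.17 for Eln and at 1.12 and 0.28 for Fbln1.

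The 3 LTBPs among the members did not move together. Ltbp1 (ENSRNOG00000033090, band 6q13) and Ltbp3 (ENSRNOG00000020813, band 1q43) encode proteins that bind latent TGF-beta, whereas the protein of Ltbp2 (ENSRNOG00000012094, band 6q31) sits on the microfibril and does not. The promoter sequences of these 3 relatives are shown because Ltbp1 and Ltbp3 rose with RA and Ltbp2 was not called for it. Each is the 250 bases before the RefSeq start of the gene in build GRCr8, printed 5′ to 3′ on the gene's strand, with GC boxes in capitals. They lie at chr6:26177302-26177551 on the minus strand (Ltbp1), chr6:110257299-110257548 on the minus strand (Ltbp2) and chr1:212458955-212459204 on the plus strand (Ltbp3).
Ltbp1: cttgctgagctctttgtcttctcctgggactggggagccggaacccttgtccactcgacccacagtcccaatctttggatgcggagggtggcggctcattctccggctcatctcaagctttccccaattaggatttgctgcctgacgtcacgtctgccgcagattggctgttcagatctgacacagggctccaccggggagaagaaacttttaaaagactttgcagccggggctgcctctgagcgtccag
Ltbp2: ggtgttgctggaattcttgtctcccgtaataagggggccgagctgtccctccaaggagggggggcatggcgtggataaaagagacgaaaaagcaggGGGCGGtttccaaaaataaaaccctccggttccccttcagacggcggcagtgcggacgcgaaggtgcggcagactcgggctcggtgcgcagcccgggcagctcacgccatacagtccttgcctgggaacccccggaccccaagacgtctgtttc
Ltbp3: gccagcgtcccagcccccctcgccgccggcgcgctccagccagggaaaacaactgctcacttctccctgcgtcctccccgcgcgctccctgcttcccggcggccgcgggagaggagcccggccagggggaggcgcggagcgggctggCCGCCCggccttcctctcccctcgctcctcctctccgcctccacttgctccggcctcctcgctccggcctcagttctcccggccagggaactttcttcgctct
The GC share was 56.8% in Ltbp1, 61.6% in Ltbp2 and 74% in Ltbp3. The single motifs searched on both strands were the retinoid receptor sites AGGTCA and AGTTCA, the GC box GGGCGG and the TATA box TATAAA. Direct repeats of retinoid receptor sites spaced by 1, 2 or 5 bases were searched as well. None was present in Ltbp1, and a single GC box lay 154 bases before the start in Ltbp2 and 103 bases before it, on the other strand, in Ltbp3. Of 33469 rat promoter windows of this length, 10197 held the GC box (30.5%), 4707 held AGGTCA, 4090 held AGTTCA (12.2%) and 4328 held TATAAA (12.9%), and the repeats were in 0.194%, 0.137% and 0.326%. In the repeats a site could also read GGGTCA or GGTTCA, so a repeat need not hold AGGTCA or AGTTCA. Among the other members with an entry (Fbn1, Fbln5 and Efemp2), AGGTCA occurred once, in Efemp2 at 187 bases before the start. These letters describe the windows and no binding was measured. Eln and Fbln1 had no entry in the promoter set used here.

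Ltbp1 had the lowest adjusted p for RA of the members. Its level was 586, 501 and 660.3 CPM at T0, 423, 458 and 446 CPM in T7-RA and 512, 565 and 552 CPM in T14-RA. With RA it was 681, 658 and 706 CPM at T7 and 1214, 1133 and 1158 CPM at T14. The T14+RA cultures lay above all others, and the T7+RA cultures lay above those of T7-RA. Ltbp1 rose with RA by 0.62 on the log2 scale at day 7 (SE 0.0998, adjusted p = 2.53e-06 in edgeR) and by 1.11 at day 14 (SE 0.0971, adjusted p = 1.10e-14). The additive RA term was 0.87 (SE 0.0820, adjusted p = 4.55e-13). The difference between days was 0.49 and did not pass the test (SE 0.139, adjusted p = 0.0898 in edgeR), but it passed with limma-voom (0.50, 0.0499) and without T0 replicate 2 (0.49, 0.0285). Adjusted for RA, its T14 change was 0.03 (adjusted p = 0.879), whereas Ltbp1 fell by 0.52 at T7 (SE 0.110, adjusted p = 0.000218). The T7 call was lost without T0 replicate 1 (-0.51, 0.00321) or T0 replicate 3 (-0.42, 0.00712), and with library size scaling (-0.41, 0.0034).

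Ltbp3 rose with RA and was also higher later in culture. It had 171, 195 and 252 CPM at T0, 304, 289 and 269 CPM in T7-RA and 294, 283 and 286 CPM in T14-RA. With RA it had 458, 427 and 396 CPM at T7 and 548, 515 and 473 CPM at T14. All RA cultures lay above all cultures without RA, and T0 lay below the rest. The additive RA term was 0.70 (SE 0.0850, adjusted p = 1.56e-09 in edgeR), with 0.57 at day 7 (SE 0.112, adjusted p = 0.000142) and 0.83 at day 14 (SE 0.112, adjusted p = 2.16e-08). The difference between the days was 0.26 (adjusted p = 0.708). The day 7 call was lost without T7-RA replicate 2 (0.57, 0.00151) or 3 (0.54, 0.00229) and without T7+RA replicate 1 (0.52, 0.00481) or 2 (0.57, 0.00146). Ltbp3 rose by 0.58 at T14 (SE 0.125, adjusted p = 0.000179 in edgeR), a call lost without T0 replicate 1 (0.46, 0.00987). Its T7 change of 0.43 was not called (adjusted p = 0.00732 in edgeR), and was called with library size scaling (0.54, 0.000702) and without T0 replicate 3 (0.59, 0.000801).

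Ltbp2 fell with time and showed no called RA change. Its level was 1145, 1000 and 1298 CPM at T0, 637, 580.5 and 489.5 CPM in T7-RA and 401, 342 and 405 CPM in T14-RA. With RA it was 523, 663 and 590 CPM at T7 and 378, 396 and 315 CPM at T14. At each day the cultures with and without RA overlapped, and T0 lay above all others. Ltbp2 fell by 0.98 at T7 (SE 0.107, adjusted p = 1.06e-10 in edgeR) and by 1.61 at T14 (SE 0.108, adjusted p = 4.08e-19). The additive RA term was -0.0045 with a 95% interval of -0.18 to 0.17, which leaves out the RA changes fitted for Ltbp1 and Ltbp3. In the second week without RA it fell by 0.57 (SE 0.113, adjusted p = 0.000191 in edgeR). That call was lost without T7-RA replicate 1 (-0.48, 0.0112) or 2 (-0.56, 0.00229), and without T14-RA replicate 1 (-0.61, 0.00156) or 2 (-0.50, 0.0067).

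Per kilobase, the order of the 3 LTBPs among the members turned over. Ltbp4, which is not a member, stood at 57.1 CPM per kilobase at T0, 45.8 in T14-RA and 24.6 in T14+RA. At T0 Ltbp2 stood at 171 ± 22.2 CPM per kilobase (SD, n = 3), Ltbp1 at 93.3 ± 12.8 and Ltbp3 at 46.9 ± 9.41. In T14-RA Ltbp1 stood at 86.9 ± 4.45, Ltbp3 at 65.6 ± 1.29 and Ltbp2 at 57.0 ± 5.27. In T14+RA Ltbp1 stood at 187 ± 6.67, Ltbp3 at 117 ± 8.54 and Ltbp2 at 54.1 ± 6.31. The level of Ltbp1 over that of Ltbp2 was 0.545 ± 0.00615 at T0, 0.847 ± 0.132 in T7-RA, 1.25 ± 0.170 in T7+RA, 1.54 ± 0.212 in T14-RA and 3.49 ± 0.437 in T14+RA. The per-length values rest on the listed length, which the sources do not define, whereas changes of a ratio between groups do not depend on it. The pair was chosen after the values were seen and is a description.

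**Figure D3:**
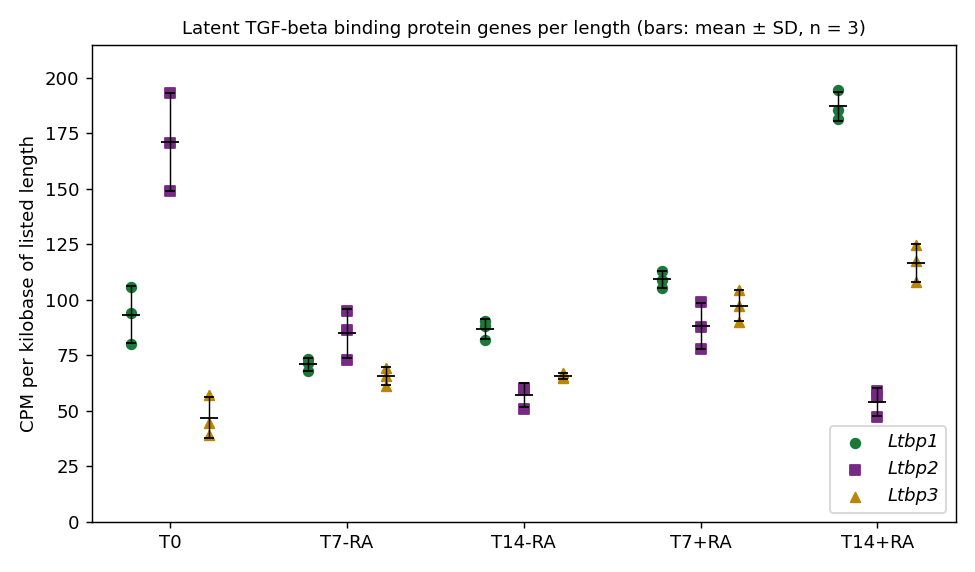
Level of Ltbp1, Ltbp2 and Ltbp3 in CPM per kilobase in each group, with points for the 3 cultures and bars for the mean ± SD. Ltbp2 is highest of the 3 at T0 (171 CPM per kilobase) and lowest in T14+RA (54.1), where Ltbp1 is highest (187).

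Over all 8 members, the per-length order also changed. At T0 it was Eln at 1052 ± 109 CPM per kilobase (SD, n = 3), Efemp2 at 278 ± 6.12, Fbln5 at 267 ± 7.75, Ltbp2, Fbn1 at 145 ± 30.8, Ltbp1, Ltbp3 and Fbln1 at 27.2 ± 2.40. Efemp2 and Fbln5 overlapped, as did Ltbp2 and Fbn1. In T14+RA it was Ltbp1, Efemp2 at 128 ± 25.8, Ltbp3, Fbln5 at 109 ± 7.48, Eln at 85.5 ± 17.7, Ltbp2, Fbn1 at 47.5 ± 5.51 and Fbln1 at 34.8 ± 8.31. In that order Efemp2, Ltbp3 and Fbln5 overlapped one another, and Ltbp2 overlapped Fbn1. The members together took 0.689% to 0.847% of all counts at T0, 0.326% to 0.340% in T14-RA and 0.317% to 0.362% in T14+RA.

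Across the 15 libraries, the log2 level of Eln had a Pearson correlation of 0.94 with Ltbp2, 0.92 with Efemp2 and 0.92 with Fbn1, and of -0.82 with Ltbp3. Ltbp1 and Ltbp3 correlated at 0.74. Among 8379 genes with a mean count of at least 10, the patterns most like that of Eln were those of Pdlim5 (0.981), Igf1r (0.980) and Ptbp1 (0.979). Most like Ltbp1 were Inpp5a (0.956), St6gal1 (0.931) and Arhgef10l (0.929), and most like Ltbp3 were Zbtb18 (0.964), Sat1 (0.963) and Chka (0.952). These correlations are descriptions over 15 libraries that share 5 group means and 1 scaling.

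Other genes of elastic fibre assembly were taken from a list of 44, of which 32 were tested. At T7, 2 rose and 6 fell, and at T14, 3 rose and 14 fell, while RA raised 7 and lowered 6. Without T0 replicate 1 the T7 counts were 1 and 4, with the calls of Itgb1 (-0.39, 0.00381), Furin (-0.59, 0.00189) and Ctsa (0.47, 0.00604) lost. The shares called over all genes are given above.

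Cross-linking enzymes, which oxidize lysines of elastin and collagen, gave 0 of 5 higher and 4 lower at T14. Lox, the main lysyl oxidase, measured 804 ± 39.3 CPM at T0 (SD, n = 3), 741 ± 56.4 in T7-RA and 447 ± 3.07 in T14-RA. It fell by 0.78 on the log2 scale at T14 (SE 0.0996, adjusted p = 3.44e-09 in edgeR). Loxl1, which acts on elastin, fell by 0.65 and Loxl4 by 1.54. Loxl2, an enzyme known for its action on basement membrane collagen, fell by 0.85 at T14 but rose by 1.80 with RA (SE 0.0918, adjusted p = 4.33e-24 in edgeR). It stood at 135 ± 18.5 CPM in T14-RA and at 440 ± 56.2 in T14+RA, and edgeR called no other of the 5 enzymes for RA.

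Of the 3 TGF-beta ligands, the cargo of the latent complexes, 2 fell at T14 and the same 2 rose with RA. Tgfb1 had log2 changes of -0.76 at T14 (adjusted p = 0.00103 in edgeR) and 0.34 with RA (0.115). Tgfb2 stood at 301 ± 21.4 CPM at T0, 212 ± 9.27 in T14-RA and 392 ± 7.63 in T14+RA, and RA raised it by 1.12 (SE 0.0851, adjusted p = 1.25e-16 in edgeR). Tgfb3 stood at 898 ± 51.2 CPM at T0, 238 ± 8.32 in T14-RA and 543 ± 16.9 in T14+RA. Tgfb3 fell by 1.79 at T14 (adjusted p = 5.09e-21) and rose by 0.97 with RA (adjusted p = 3.60e-14). Furin, a protease that cuts pro-TGF-beta and profibrillin, fell by 0.82 at T14 and was not called for RA.

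Other microfibril proteins were mostly lower with RA, with 1 of 9 tested genes higher and 5 lower. Mfap5, a small glycoprotein bound to fibrillin, was at 81.3 ± 15.7 CPM in T14-RA and 30.7 ± 4.80 in T14+RA, and fell by 1.32 with RA (SE 0.154, adjusted p = 5.39e-10 in edgeR). Ltbp4, the LTBP known to promote elastin assembly, fell by 0.54, and the changes of Adamts10, Adamtsl4 and Emilin1 were -0.91, -0.90 and -0.39. The Emilin1 call was lost without T7-RA replicate 1 (-0.37, 0.00141), T7+RA replicate 1 (-0.38, 0.00105) or T7+RA replicate 3 (-0.34, 0.0023). Fbln7, a further fibulin, rose by 2.13 with RA (adjusted p = 5.64e-11). It had 20, 6 and 13 counts in T14-RA and 107, 69 and 68 in T14+RA. With time Emilin2 fell by 1.23 and Mfap5 by 0.79 at T14. The Emilin2 call was lost without T0 replicate 1 (-1.03, 0.00101). The Mfap5 call was lost without T0 replicate 2 (-0.69, 0.00314) or 3 (-0.71, 0.00251) or T14-RA replicate 1 (-0.80, 0.00103) or 3 (-0.72, 0.00205), with DESeq2 (-0.80, 0.00105) and with library size scaling (-0.69, 0.00124). Adamtsl2, also called higher at T14, had 1, 0 and 0 counts at T0 and 12, 10 and 15 in T14-RA, so no fold is given. It was not called by limma-voom, by DESeq2 or without T14-RA replicate 3.

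Integrin receptors for these fibres gave 0 of 7 higher and 4 lower at T14, and 3 higher with RA. Itgb1 and Itgb5 fell by 0.62 and 0.87 at T14 and rose by 0.65 and 0.76 with RA, and Itgav fell by 0.53 at T14. The Itgav call was lost without T0 replicate 1 (-0.46, 0.00987) or 3 (-0.46, 0.00555) or T14-RA replicate 2 (-0.48, 0.00332), with library size scaling (-0.42, 0.00443) and with at least 10 counts required in every library (-0.47, 0.00131). Itga8 had 44, 21 and 19 counts in T14-RA and 162, 79 and 93 in T14+RA, and rose by 2.08 with RA. Itga5, the alpha chain of the fibronectin receptor, stood at 573 ± 29.0 CPM at T0, 261 ± 26.1 in T7-RA and 405 ± 13.5 in T7+RA. At day 14 its levels were 242 ± 5.84 CPM without and 225 ± 18.4 with RA, and its RA change differed between the days by -0.73 (SE 0.161, adjusted p = 0.00764 in edgeR).

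Of the elastases, Mmp2, a gelatinase that also degrades elastin, had 15, 2 and 0 counts at T0 and 225, 151 and 161 in T14-RA. Mmp2 rose by 4.71 at T14 (SE 0.314, adjusted p = 5.44e-14 in edgeR) and by 2.57 in the second week without RA, and fell by 1.69 with RA. Its T14 change became 6.92 and its T7 change of 2.36 became 4.56 without T0 replicate 1, which held most of its T0 counts, so the size of both rests on that library. Mmp14, which activates Mmp2, fell by 0.47 at T14, a call lost without T0 replicate 1 (-0.39, 0.0117) or 3 (-0.40, 0.00487) or T14-RA replicate 1 (-0.43, 0.00284), with library size scaling (-0.36, 0.00501) and with at least 10 counts required in every library (-0.41, 0.00114). Ctsa, a subunit of the elastin receptor complex, rose by 0.98 at T14 (SE 0.111, adjusted p = 9.76e-11 in edgeR), and Glb1 and Neu1 of that complex were not called.

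**Figure D4:**
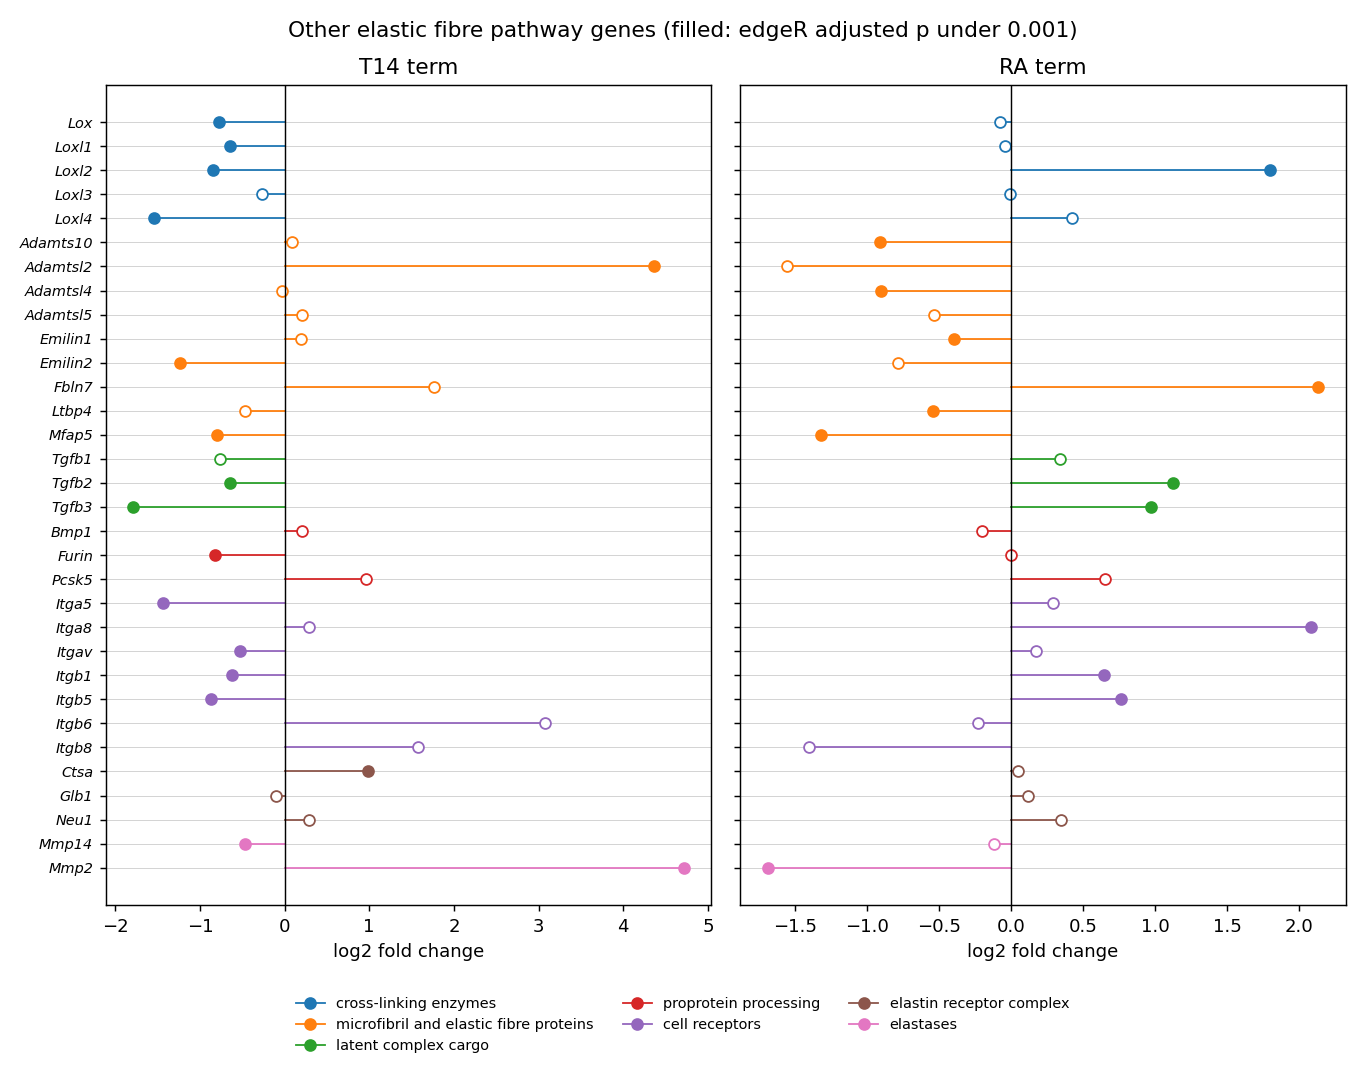
Log2 change of the 32 other elastic fibre genes tested for T14 (left) and for RA (right) in the additive model, 1 gene a line, coloured by role, with filled symbols at an edgeR adjusted p under 0.001. Loxl2 (-0.85 and 1.80) and Tgfb3 (-1.79 and 0.97) are lower at T14 and higher with RA, whereas Mmp2 (4.71 and -1.69) is the reverse, with a T14 value of 6.92 without T0 replicate 1.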

How the data were processed

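Stranded mRNA libraries of 15 H9c2 cultures were sequenced. The authors mapped the reads with HISAT2, counted them per gene with featureCounts and deposited raw counts for genes with more than 20 counts over the 15 libraries. The submitters' processing notes name the build Rnor 6.0, and tool versions and whether counting used strand are not given in the sources used here. Groups and replicate numbers came from the sample labels.

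Counts were fitted in edgeR 4.0.16 (R 4.3.3) with TMM scaling, robust quasi-likelihood F tests on all 11574 genes, and p-values were adjusted by the Benjamini-Hochberg method within each comparison. The study used limma with the same additive formula and threshold. The threshold was 0.001, and 0.05 for the difference between days. Levels per kilobase used the length listed in the deposited annotation. Correlations used log2 CPM with a prior count of 2. Replicates differed by more than sampling noise (chi-square per gene of at least 1.07), and all were kept apart. Alternatives were limma-voom (limma 3.58.1), DESeq2 1.42.0, relative log expression factors, library size only, 2 filters on low counts, another threshold, a replicate block and leaving out each library.

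On simulated counts with 200 genes changed by a log2 value of 1, T7 recovered 76 of them (11462 genes fitted), T14 77 (11442) and RA 122 (11467), with 0 false calls for each. Of the changed genes with a mean of at least 100 counts, T7 recovered 30 of 30, T14 20 of 21 and RA 31 of 31. All members but Fbln1 had a mean count above 100. Smaller changes, the RA tests at single days, the difference between days and the second week were not simulated. The recovered shares therefore do not apply to them.

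The members and lists were chosen with earlier results of these data known. Genes named are the members, the genes of the assembly list called in any comparison, and the 3 genes most like Eln and like the 2 other members with the lowest RA p. Tgfb1, Glb1 and Neu1 fall outside this rule, as do the 8 muscle genes, Dcn, Lum, Thy1, Col1a1, Acta2, Myh11, Tagln and Cnn1. All of these were named after their values were seen. Promoter windows came from a set built on RefSeq starts (GRCr8). The set used here held an entry for 6 of the 8 members, which says nothing of RefSeq itself. The coordinates are of that build and not of the counts. The columns of gene names, bands and lengths were the annotation that came with the counts.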

Additional observations from a re-analysis of the deposited data

Results flagged for a closer look

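The RA change of Eln, which encodes tropoelastin, differed between the days: the log2 change at day 14 minus that at day 7 was -0.95 (SE 0.149, adjusted p = 2.23e-05 in edgeR). All 3 cultures with RA lay below all 3 without it at each day. The RA change of Itga5, an integrin chain, also differed, by -0.73 (SE 0.161, adjusted p = 0.00764 in edgeR), with 0.63 at day 7 and -0.10 at day 14. The mean levels of Itga5 were 405 CPM with and 261 CPM without RA at day 7. Groups of 3 cultures were too small for a search for outlying libraries.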

How the results depend on the processing

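The number of members called in both directions together was within 1.5 times its reported value in every setting but the following. At an adjusted p under 0.05, RA at day 7 called 5 members in place of 3. For the difference between days, limma-voom called 2 members and the fit with a replicate block called 3, in place of 1. The block added Fbln1 (-0.85, adjusted p = 0.0367 in edgeR) and Ltbp1 (0.49, 0.0312). With library size only, T7 called 3 members, 1 higher and 2 lower, in place of 4 lower. With the replicate block Fbn1 was also called for RA at day 14 (adjusted p = 0.000213 in edgeR) and for the second week without RA (6.86e-05). Cultures with the same number were not alike, with correlations of their deviations from -0.035 to 0.0991, so the numbers were not taken as pairs. Leaving out 1 library gave 2 to 5 members for T7, lowest without T0 replicate 1, 1 to 3 for the difference between days and 1 to 4 for the second week, lowest without T7-RA replicate 1.

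Changes of sign were limited to 7 results that were not called. With 1 library left out the log2 changes ran from -0.052 to 0.13 for Ltbp1 at T14, and for Ltbp2 from -0.056 to 0.046 for RA, from -0.0375 to 0.15 for RA at day 7 and from -0.14 to 0.012 for RA at day 14. They ran from -0.028 to 0.26 for the difference between days of Efemp2, and in the second week from -0.0697 to 0.13 for Fbln1 and from -0.045 to 0.047 for Ltbp3, which was -0.0035 with library size only. The causes of these moves were not tested. For the members, 1168 single-gene values kept direction and call, 23 gained a call, 24 lost one and 17 changed sign. Depth limits low genes, and the median gene had 22 counts. The intervals are those of a fitted change, with the spread estimated from all 15 libraries together.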
